A study of Mus musculus with 9 samples.

Results

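Primary mouse stromal vascular fraction (SVF) cells that had been taken through adipogenic differentiation for 6 days with mizoribine (MIZ) were compared with undifferentiated SVF cells, to describe how far induced cells under MIZ had moved from cells that were never induced. The comparison used the 3 MIZ and the 3 undifferentiated libraries of the 9 in the experiment, chosen by their treatment labels, and the 16664 of 32285 listed genes for which 3 or more of these 6 libraries held 5 or more counts. The other 3 libraries came from cells differentiated for 6 days with vehicle, and their levels are given alongside without a test. SVF cells are the cells of fat tissue other than mature adipocytes, preadipocytes among them. All groups were wild type (WT) cells from the subcutaneous white fat of mice 4 to 6 days old, and the labels call all of them primary adipocytes. In undifferentiated cells the defining markers of adipocytes were at or near 0, with 1 Adipoq count in the 3 libraries together and Plin1 at 0.124 to 0.283 CPM, while the progenitor receptor Pdgfra was at 564 to 608 CPM. The design text calls the 3 libraries of a group biological replicates, and whether a replicate number marks the same animal across groups is not given.

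Induced cells of both kinds received insulin, dexamethasone and IBMX for 2 days and then insulin, troglitazone, rosiglitazone and T3, and the MIZ group also had 25 µM MIZ. The time at which undifferentiated cells were collected is not given in the sources used here. Undifferentiated cells therefore differ from MIZ-treated cells by the medium, the hormones, the days in culture and the drug, which cannot be told apart in this comparison. Libraries held 42217231 to 55288455 counts in undifferentiated cells and 33504937 to 43281818 with MIZ. Transcripts encoded in the mitochondrial genome took 0.837 to 0.891% of counts in undifferentiated cells, 0.686 to 0.836% with MIZ and 3.82 to 5.002% with vehicle. Levels below are CPM, counts scaled to a common library size after TMM normalization, listed for libraries 1, 2 and 3 of a group. Changes are log2 fold changes of MIZ over undifferentiated cells ± SE. The SE is approximate, and for genes with few counts in a group it understates the uncertainty. It was derived as the absolute log2 fold change over the square root of the F statistic of the test named next. Calls were made where the adjusted p was under 0.05 in edgeR's quasi-likelihood test with Benjamini-Hochberg adjustment over all 16664 genes, and rose or fell is used only of called genes.

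Adipogenesis starts when growth-arrested preadipocytes receive hormonal cues. The early factors C/EBPβ and C/EBPδ lead to PPARγ and C/EBPα, which together switch on genes of lipid storage, lipid droplets and secreted adipokines, while progenitor, matrix and contractile genes are lowered. MIZ blocks inosine monophosphate dehydrogenase (IMPDH), the enzyme that commits inosine monophosphate to guanine nucleotides, which dividing cells need for DNA and RNA.

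All 36 mitotic genes tested fell, where 36.3% of all tested genes did, and 27 of 31 contractile genes rose, where 35.5% of all did, and promoters of both groups are known to carry short motifs, so examples are shown. The CHR letters TTTGAA are known from cell cycle promoters, the CCAAT box often accompanies them, and the CArG box is the binding motif of serum response factor in contractile genes. All 3 were searched on both strands in the 300 bases from 250 before to 50 after the RefSeq start site (GRCm38.p6), where neighbouring motifs can share letters and some CArG boxes begin with CCAAT. The capitals mark these motifs, and ATTGG is CCAAT read on the other strand. The examples are 2 mitotic genes among those with the largest falls that hold both CHR and CCAAT, Cenpf (chr1:189688037-189688336, minus strand) and Ccnb2 (chr9:70421505-70421804, minus strand), and 2 contractile genes among those with the largest rises that hold the CArG box, Acta1 (chr8:123894726-123895025, minus strand) and Myl9 (chr2:156775214-156775513, plus strand).
Cenpf: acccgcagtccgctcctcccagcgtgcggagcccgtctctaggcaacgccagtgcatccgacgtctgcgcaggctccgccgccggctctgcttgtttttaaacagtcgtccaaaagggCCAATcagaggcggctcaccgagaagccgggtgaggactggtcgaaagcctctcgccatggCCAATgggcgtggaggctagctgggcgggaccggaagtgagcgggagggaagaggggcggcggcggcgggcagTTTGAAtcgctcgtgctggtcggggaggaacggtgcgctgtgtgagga
Ccnb2: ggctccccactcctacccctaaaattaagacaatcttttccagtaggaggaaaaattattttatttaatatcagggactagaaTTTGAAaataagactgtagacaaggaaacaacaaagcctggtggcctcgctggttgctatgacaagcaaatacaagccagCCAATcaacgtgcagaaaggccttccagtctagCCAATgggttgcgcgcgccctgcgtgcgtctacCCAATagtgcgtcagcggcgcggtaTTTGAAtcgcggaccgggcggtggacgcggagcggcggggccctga
Acta1: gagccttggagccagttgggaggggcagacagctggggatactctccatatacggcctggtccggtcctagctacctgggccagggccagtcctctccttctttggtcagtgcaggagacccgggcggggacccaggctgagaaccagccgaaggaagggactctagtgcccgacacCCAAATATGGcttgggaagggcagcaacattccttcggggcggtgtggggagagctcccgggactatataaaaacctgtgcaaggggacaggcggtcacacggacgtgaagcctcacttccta
Myl9: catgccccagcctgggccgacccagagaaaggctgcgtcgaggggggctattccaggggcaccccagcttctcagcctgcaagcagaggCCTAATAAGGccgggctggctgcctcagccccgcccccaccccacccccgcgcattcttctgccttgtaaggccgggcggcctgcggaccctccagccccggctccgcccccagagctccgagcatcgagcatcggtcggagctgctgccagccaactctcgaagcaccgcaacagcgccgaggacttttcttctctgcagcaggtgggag

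Of 36 mitotic genes, 31 had a promoter in the RefSeq table, and 23 of these (74.2%) held the CHR letters, against 12.6% of the 12350 tested genes with a promoter. Both CHR and CCAAT were found in 64.5% of the mitotic promoters and in 5.36% of those of all tested genes. DNA replication genes held CHR in 7 of 30 promoters (23.3%). The CArG box was in 5 of 27 contractile promoters (18.5%), in 1.33% of those of all tested genes and in 0 of the 31 mitotic and 0 of the 30 replication promoters. These shares describe letters in 1 window and not the binding of a factor.

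MIZ-treated cells stood clearly apart from undifferentiated cells. Of the 16664 genes tested, 5917 (35.5%) were called higher with MIZ and 6053 (36.3%) lower, together 71.8%. The median log2 fold change of all genes was -0.01. Each count of list members called is to be read beside these shares. Changes above 2-fold were less even, with 1619 genes (9.72%) higher and 2853 (17.1%) lower. Above 4-fold, 649 genes (3.89%) were higher and 1423 (8.54%) lower, and above 16-fold the counts were 202 (1.21%) and 285 (1.71%). The remaining 7498 called genes changed by at most 2-fold, and the median absolute log2 fold change was 0.48. For 12613 genes (75.7%) the 3 MIZ libraries did not overlap the 3 undifferentiated ones. A lack of overlap in genes named below is to be read beside this share.

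The genes that rose by more than 2-fold took 4.47 to 4.58% of all counts in undifferentiated libraries, 13.4 to 14.1% with MIZ and 17.4 to 17.9% with vehicle. Those that fell by more than 2-fold took 15.96 to 16.2% of counts in undifferentiated libraries, 4.38 to 4.72% with MIZ and 3.88 to 4.01% with vehicle. As these genes were picked on the same libraries, the shares are a description. The root-mean-square distance between libraries over all tested genes, in log2 CPM, was 1.29 to 1.35 between undifferentiated and MIZ libraries and 1.32 to 1.35 between MIZ and vehicle libraries. It was 1.76 to 1.82 between undifferentiated and vehicle libraries. The tested genes were chosen on the MIZ and undifferentiated libraries alone, so genes with counts only in vehicle libraries are missing from every distance. Libraries of the same group were 0.289 to 0.308 apart in undifferentiated cells and 0.346 to 0.404 apart with MIZ. In a principal component analysis of the 6 libraries, 91.5% of the variance lay on the first component, which separated the groups. The second, with 3.10%, set MIZ library 3 at 30.3 apart from MIZ libraries 1 and 2 at -18.9 and -11.8.

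**Figure D1:**
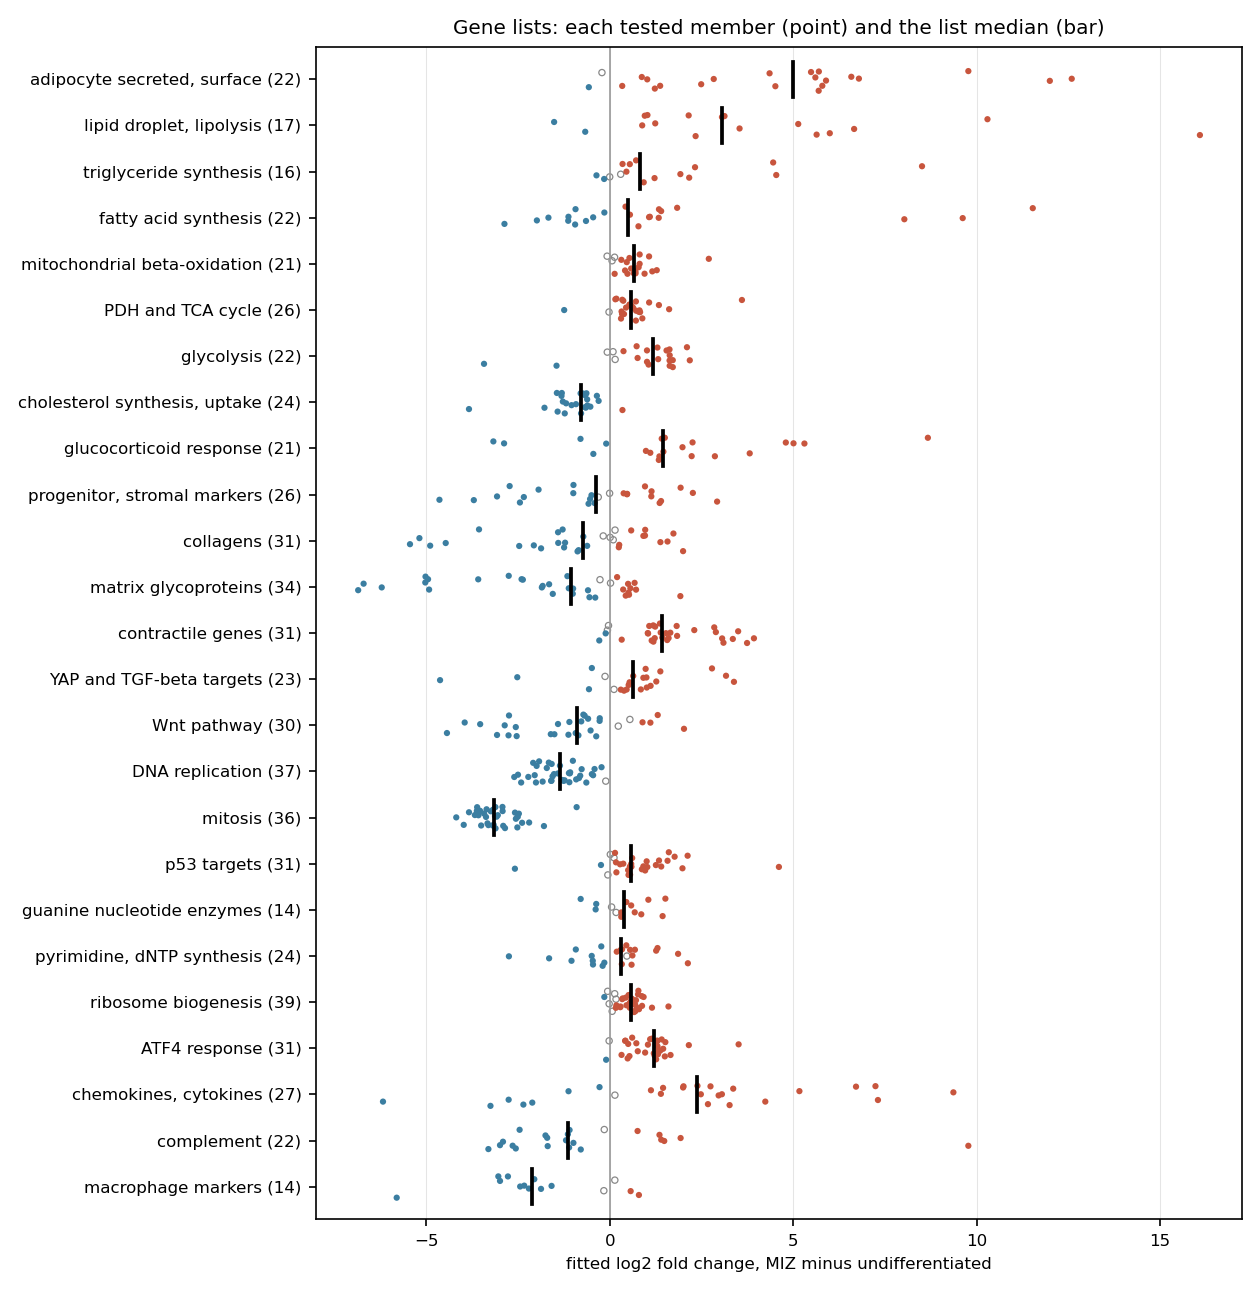
Fitted log2 fold change of MIZ over undifferentiated cells (horizontal axis) for the tested members of 25 gene lists (rows, number tested in brackets), with filled points for called genes (red higher, blue lower), open points for genes not called and a black bar at the median. All 36 mitosis genes lie left of 0, and the medians run from -3.15 for mitosis to 4.998 for adipocyte secreted and surface proteins. The point at the far right is Cidec, which had 0 counts in undifferentiated cells, so that its fitted value depends on the prior count.

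Undifferentiated cultures held transcripts that mark other cell types, macrophages among them. Of 14 macrophage markers tested, 10 fell, 2 rose and 2 (Aif1 and Cd74, named after their values were seen) were not called, and their summed level was 5776 to 5926 CPM in undifferentiated, 1089 to 1476 with MIZ and 608 to 1093 with vehicle libraries. Mrc1, the mannose receptor of resident macrophages, stood at 1393, 1534 and 1449 CPM in undifferentiated and at 27.3, 27.7 and 22.8 CPM with MIZ (log2 fold change -5.81 ± 0.08, adjusted p = 2.5e-12). Csf1r, the receptor for macrophage colony-stimulating factor, was at 375, 419 and 385 CPM in undifferentiated and 62.6, 56.0 and 53.1 CPM with MIZ (-2.78 ± 0.07). In both genes every MIZ library lay far below every undifferentiated library. Adgre1 (F4/80) went the other way, from 228, 255 and 232 CPM to 487, 421 and 331 CPM (0.79 ± 0.11), without overlap, and so did Cd14 (0.57 ± 0.06). No macrophage marker was at 0 with MIZ. In bulk RNA, fewer cells of a type and less RNA per cell cannot be told apart. The part of macrophages in the changes of genes that they also express, among them C1q, chemokines and several of the largest falls, was not tested.

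**Figure D2:**
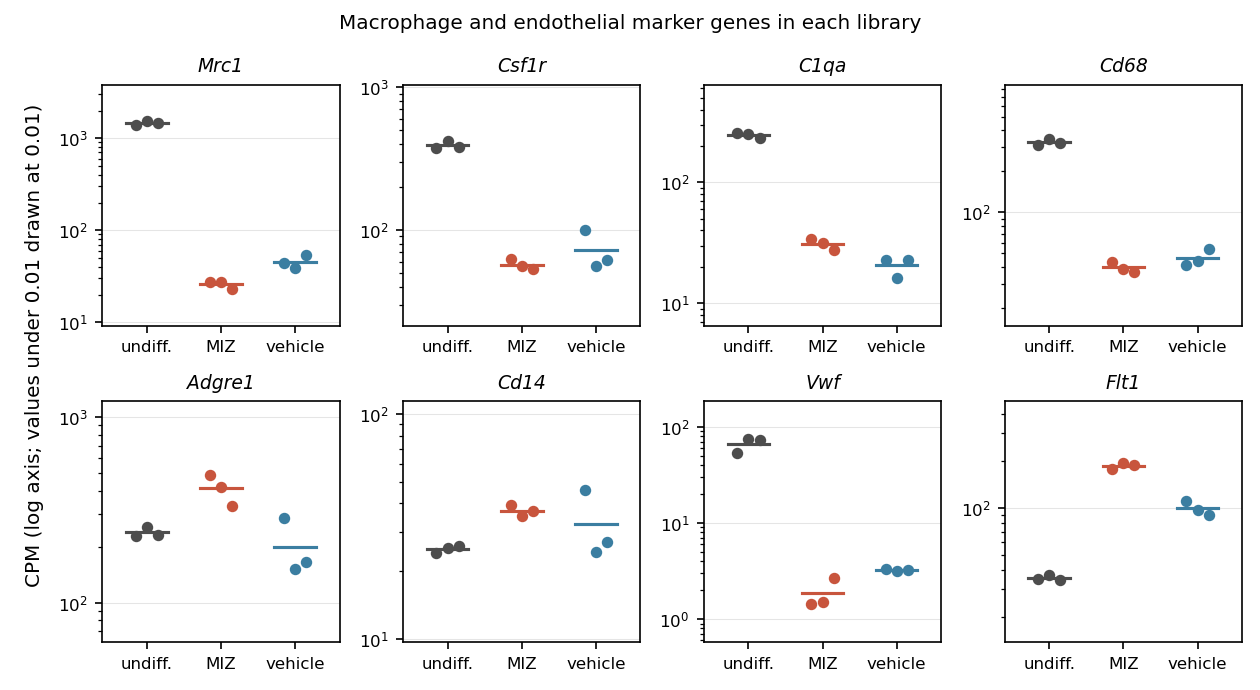
CPM (log axis) of macrophage and endothelial markers in each library (points) with the group mean (line), for undifferentiated, MIZ and vehicle libraries. Mrc1, Csf1r, C1qa, Cd68 and Vwf are lower in all MIZ than in all undifferentiated libraries, whereas Adgre1, Cd14 and Flt1 are higher.

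Markers of other cell types moved in both directions. Among 10 endothelial markers tested, 7 fell and 1 rose, where 36.3% and 35.5% of all genes did. Vwf (von Willebrand factor) was at 53.8, 74.7 and 73.4 CPM in undifferentiated and 1.43, 1.51 and 2.71 CPM with MIZ (-5.19 ± 0.19), while Flt1, a VEGF receptor, rose from 34.8, 37.0 and 34.4 CPM to 177, 192 and 187 CPM (2.39 ± 0.05). Pecam1, which marks all endothelium and is named here after its values were seen, had a mean of 0.663 CPM in undifferentiated cells and 0.481 CPM with MIZ and was not called. Pericyte markers split, 4 of 8 higher and 3 lower, where 35.5% and 36.3% of all genes were. The potassium channel subunits Kcnj8 and Abcc9 fell by 5.83 and 5.17 on the log2 scale, and Mcam rose (1.74 ± 0.09). Schwann cell markers rose in 5 of 8, among them Sox10, the defining factor of this lineage (1.03 ± 0.17), and Mbp and S100b fell. Of the lymphocyte, mesothelial, skeletal muscle, epithelial and cartilage or bone lists, most members were too low to be tested (2 of 10, 4 of 9, 3 of 10, 1 of 8 and 4 of 9 tested). Their summed levels with MIZ were 2.07 to 4.18, 10.5 to 12.1, 47.0 to 73.6, 0.0839 to 0.164 and 69.2 to 80.1 CPM, where Acta1, also a contractile gene, carried the muscle list. In the same order, 1, 2, 2, 0 and 2 members rose and 1, 0, 0, 1 and 1 fell.

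Several of the largest rises were of genes known from mature adipocytes. Cidec, which enlarges lipid droplets, had 0 counts in the 3 undifferentiated libraries and 22531 with MIZ, at 171, 202 and 247 CPM, so that with a floor of 3 counts over the undifferentiated group it was at least 9586-fold higher. With vehicle it was at 1724 to 1857 CPM. Lgals12, a galectin of lipid droplets, was likewise at 0 counts in undifferentiated cells and at 6.73, 9.09 and 11.9 CPM with MIZ, at least 425-fold higher. Paqr9, Aldh3b2 and Sptlc3, the last a subunit of the enzyme that starts sphingolipid synthesis, also had 0 undifferentiated counts and were at least 302, 299 and 280.4-fold higher with MIZ. Other genes with large rises had 1 to 3 counts in all undifferentiated libraries together, so that no fold change is given. These were Adipoq (1 count against 6734), Retn (2 against 7600), Thrsp (1 against 3251), the carbonic anhydrase Car3 (2 against 3122), the carboxylesterase Ces1d (1 against 1899), A530016L24Rik (1 against 1884) and the cytokine Csf3 (3 against 1681). In all, 111 tested genes had at most 3 counts in undifferentiated cells, and 33 of them reached a mean of at least 1 CPM with MIZ.

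The genes with the largest falls have varied known roles. Entpd3, an ectonucleotidase, was at 8.20, 7.84 and 7.36 CPM in undifferentiated cells and at 0 counts with MIZ, at least 287-fold lower. Scg2 (secretogranin II, a secretory granule protein) went from 113, 92.3 and 100.4 CPM to 0.399, 0.531 and 0.307 CPM (log2 fold change -7.93 ± 0.13, adjusted p = 6.2e-12). Chodl, which encodes chondrolectin, went from 23.7, 24.5 and 21.4 CPM to 0.0704, 0 and 0.0615 CPM (-8.91 ± 0.22). The largest falls were picked among genes without overlap between groups, so the lack of overlap in these levels is not a result of its own. Cd28, known as the co-stimulatory receptor of T cells, fell from 17.3, 23.1 and 22.4 CPM to 0.117, 0.0559 and 0.154 CPM (-7.56 ± 0.23), and Treml2, a receptor of myeloid and B cells, from 11.4, 15.4 and 13.6 CPM to 0.0469, 0 and 0.0922 CPM (-8.13 ± 0.30). P2ry13, a purinergic receptor of macrophages and microglia, had 1528 counts in undifferentiated cells and 1 with MIZ. The lysosomal channel Mcoln3 (-7.24 ± 0.46), Olfml1 (-7.33 ± 0.25), Abcg3 (-7.24 ± 0.22), Gpr160 (-7.21 ± 0.28) and the potassium channel subunit Kcns1 (-6.86 ± 0.21) completed the list with Ogn, described below. Of 176 genes with at most 3 counts with MIZ, 19 had at least 1 CPM in undifferentiated cells, and the highest after Entpd3 and P2ry13 were Gpr165, Wdr86, Kmo, Trav13-4-dv7, Pdzk1ip1 and Kynu, with 500, 444, 421, 388, 368 and 314 undifferentiated counts against 1 to 3 with MIZ. Kmo and Kynu are enzymes of tryptophan breakdown.

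The transcription factors of adipogenesis mostly rose with MIZ, the central pair Pparg and Cebpa included. 13 of 21 tested factors rose and 3 fell, with a median log2 fold change of 0.47. Pparg was at 8.32, 7.63 and 9.36 CPM in undifferentiated and 19.9, 21.7 and 25.5 CPM with MIZ (log2 fold change 1.40 ± 0.10, adjusted p = 3.1e-07), against 172 to 192 CPM with vehicle. Cebpa was at 60.0, 58.9 and 58.6 CPM in undifferentiated and 80.8, 79.4 and 85.1 CPM with MIZ (log2 fold change 0.47 ± 0.04, adjusted p = 1.6e-06), against 572 to 641 CPM with vehicle. For both, all MIZ libraries lay above all undifferentiated libraries and far below all vehicle libraries. Cebpb, the early factor, rose from 105, 101 and 103 CPM to 217, 198 and 203 CPM (1.000 ± 0.04). Larger rises were those of Mlxipl (ChREBP, the glucose-responsive factor of lipogenesis), from 0.0467 to 0.0943 CPM to 4.55, 5.65 and 6.70 CPM (6.40 ± 0.29), of Zbtb16, also a glucocorticoid target, from 0.919, 1.28 and 1.07 CPM to 40.8, 28.6 and 21.0 CPM (4.80 ± 0.26), and of Nr1h3, the liver X receptor α (2.11 ± 0.14). The coactivator Ppargc1a rose from 0.267 to 0.707 CPM to 4.65, 7.05 and 7.19 CPM (3.68 ± 0.28). Rxra, the partner of PPARγ (-0.84 ± 0.05), Zfp467 (-0.71 ± 0.08) and Stat5b (-0.59 ± 0.05) fell.

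Of 16 tested genes listed as inhibitors of adipogenesis, 9 were lower and 5 higher, where 36.3% and 35.5% of all genes were. The place of Rgs2, Wnt5b and the Wnt antagonist Sfrp1 among inhibitors is not established. The count therefore need not be one of inhibitors alone. Zfp521, which holds progenitors back from the adipocyte fate, went from 182, 179.7 and 183 CPM to 84.3, 73.2 and 71.3 CPM (-1.25 ± 0.06), and with vehicle it was at 9.82 to 11.3 CPM. Dlk1 (Pref-1), a preadipocyte marker, went from 131, 115 and 143 CPM to 92.0, 88.3 and 79.4 CPM (log2 fold change -0.58 ± 0.08, adjusted p = 3.9e-05). Rgs2 (-1.76 ± 0.10) and Wnt5b (-1.51 ± 0.33) also fell. The 5 that rose were the immediate early factor Egr1 (1.51 ± 0.12), Gata3 (1.45 ± 0.21), the stress factor Ddit3 (1.20 ± 0.06), Wnt10b (0.89 ± 0.24) and Nr2f2 (0.39 ± 0.05).

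**Figure D3:**
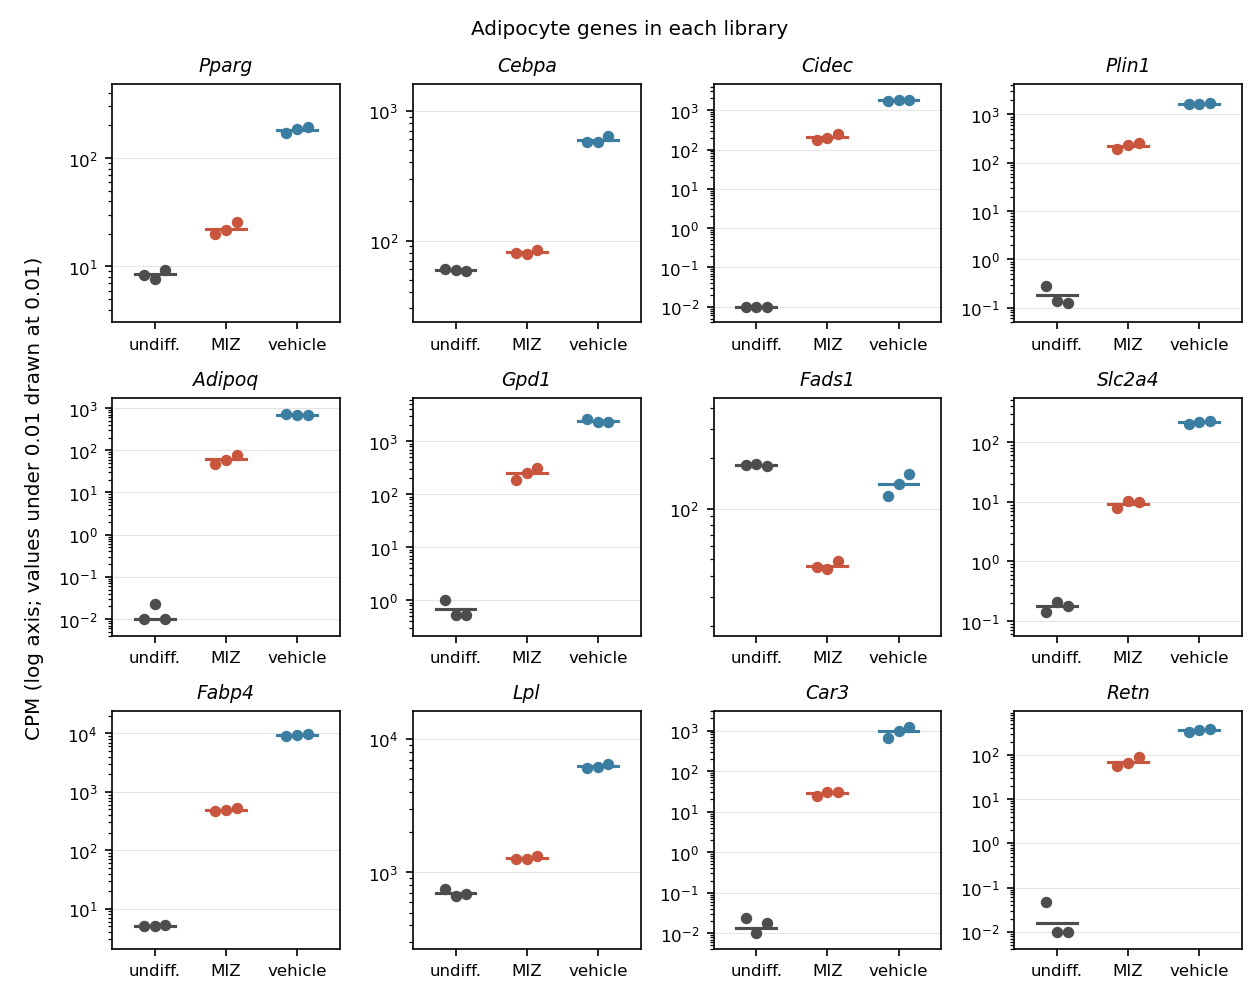
CPM (log axis) of 12 adipocyte and lipid genes in each library (points) with the group mean (line), for undifferentiated, MIZ and vehicle libraries, with values under 0.01 drawn at 0.01. Except for Fads1, every MIZ library lies above every undifferentiated library and below every vehicle library.

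Products of the mature adipocyte had a larger median fold change than the factors. Several of them started near 0 in undifferentiated cells, so the medians are not like for like. Of 22 secreted and surface proteins tested, of 25 listed, 20 rose and 1 fell, with a median log2 fold change of 4.998. Adipoq (adiponectin) was at 0 to 0.0233 CPM in undifferentiated cells, at 47.9, 60.3 and 78.0 CPM with MIZ and at 667 to 712 CPM with vehicle. Retn (resistin) was at 0 to 0.0471 CPM, 56.4, 65.4 and 87.9 CPM and 325 to 393 CPM in the same order. Cfd (adipsin) rose from 0.0236, 0.0467 and 0.0178 CPM to 23.8, 27.9 and 30.4 CPM (log2 fold change 9.77 ± 0.22, adjusted p = 3.4e-11), against 37.1 to 51.3 CPM with vehicle. Its counts in undifferentiated cells were few, so that the size of its fold change is uncertain. None of the 3 overlapped between MIZ and the undifferentiated libraries, and Cfd with MIZ came nearest to its vehicle level. Adrb3, the β3-adrenergic receptor, rose from 0.0889 to 0.212 CPM to 11.4, 15.3 and 21.5 CPM (6.79 ± 0.35). Apoe, the apolipoprotein, fell (-0.57 ± 0.15).

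Lipid droplet and lipolysis genes rose in 15 of 17, with a median of 3.06. Plin1, the coat protein that guards the adipocyte droplet, was at 0.283, 0.140 and 0.124 CPM in undifferentiated and 194, 229 and 255 CPM with MIZ (log2 fold change 10.29 ± 0.18, adjusted p = 7.2e-12). Plin4 went from 1.53, 2.01 and 2.40 CPM to 106, 128 and 152 CPM (6.00 ± 0.17), and Plin5, of oxidative tissue, rose from 2 counts in undifferentiated cells to 189 with MIZ (1.22, 1.96 and 2.06 CPM), against 66.8 to 68.6 CPM with vehicle. Plin3, the perilipin found in most cells (-0.67 ± 0.06), and Cideb (-1.52 ± 0.38) fell. Plin1 and Plin4 thus went up and Plin3 down, with no overlap between MIZ and undifferentiated libraries in any of them.

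Uptake and binding of fatty acids split by isoform, with 7 of 14 higher and 4 lower, where 35.5% and 36.3% of all genes were. Fabp4, the adipocyte fatty acid binding protein, was at 5.02, 5.09 and 5.35 CPM in undifferentiated and 463, 488 and 530.4 CPM with MIZ (log2 fold change 6.58 ± 0.07, adjusted p = 4.1e-13), and at 9091 to 9702 CPM with vehicle. Its relatives went down, Fabp5 from 215, 223 and 202 CPM to 66.7, 70.2 and 78.7 CPM (-1.57 ± 0.06) and Fabp3 (-1.41 ± 0.14). The acyl-CoA synthetases divided likewise, Acsl1 rising from 22.7, 23.8 and 22.8 CPM to 183, 224 and 271 CPM (3.29 ± 0.12) and Acsl3 falling from 35.0, 36.8 and 36.2 CPM to 9.39, 9.20 and 10.6 CPM (-1.89 ± 0.06). Cd36, the fatty acid translocase (5.79 ± 0.11), and Cav1 of caveolae (2.86 ± 0.09) rose, and the transporter Slc27a1 fell (-0.49 ± 0.09). Lpl, the lipase that frees fatty acids from lipoproteins, was already at 754, 662 and 683 CPM in undifferentiated cells and reached 1259, 1251 and 1326 CPM with MIZ (0.87 ± 0.06).

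Triglyceride synthesis rose in 12 of 16 genes and fell in 2. Gpd1, which makes the glycerol backbone, was at 1.01, 0.537 and 0.533 CPM in undifferentiated and 187, 248 and 311 CPM with MIZ (log2 fold change 8.51 ± 0.25, adjusted p = 2.1e-10), and at 2289 to 2683 CPM with vehicle. Dgat2, which adds the last acyl chain, went from 1.18, 1.73 and 1.12 CPM to 27.2, 29.1 and 36.3 CPM (4.54 ± 0.16), and Gpat3, which adds the first, from 1.51, 1.70 and 1.63 CPM to 29.3, 37.1 and 40.2 CPM (4.45 ± 0.14). In each of these genes MIZ libraries lay above all undifferentiated and below all vehicle libraries. The phosphatase Lpin3 rose to 19.8, 20.02 and 20.9 CPM with MIZ (2.32 ± 0.08), above the 8.75 to 9.74 CPM of vehicle. Lpin2 (-0.36 ± 0.05) and Agpat5 (log2 fold change -0.16 ± 0.06, adjusted p = 0.0264) fell slightly, and the call of Agpat5 was lost without undifferentiated library 2 or 3 or MIZ library 2.

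Fatty acid synthesis and desaturation went both ways, 12 of 22 higher and 10 lower, where 35.5% and 36.3% of all genes were. Thrsp, a nuclear protein of lipogenesis, was at 0 to 0.0233 CPM in undifferentiated and 24.8, 31.2 and 33.2 CPM with MIZ, and the elongase Elovl3 went from 0 to 0.0533 CPM to 16.5, 23.8 and 33.7 CPM. The desaturase Scd3 was at 0 counts in undifferentiated cells and at 0.681, 0.587 and 1.08 CPM with MIZ, against 80.2 to 99.1 CPM with vehicle. Fads1, the Δ5 desaturase of polyunsaturated fatty acids, fell from 182, 184 and 179.8 CPM to 45.1, 43.7 and 48.8 CPM (log2 fold change -1.99 ± 0.05, adjusted p = 5.0e-11), below its 119 to 162 CPM with vehicle. Fads6 fell (-2.87 ± 0.29) and Fads3 rose (1.83 ± 0.06).

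The sterol pathway fell almost throughout. 23 of 24 genes of cholesterol synthesis and uptake were lower with MIZ and 1 was higher, against 36.3% lower of all genes, with a median of -0.79. Fdps (farnesyl diphosphate synthase) went from 68.6, 68.4 and 68.4 CPM to 24.5, 22.2 and 30.1 CPM (log2 fold change -1.42 ± 0.09, adjusted p = 5.2e-08), and with vehicle it stood at 108 to 121 CPM. Mvd (mevalonate decarboxylase) went from 26.0, 28.4 and 27.5 CPM to 10.4, 8.36 and 11.4 CPM (-1.44 ± 0.09), against 30.4 to 35.7 CPM with vehicle. In Fdps the MIZ libraries were thus the lowest of the 3 groups, and the same held for Mvd and for the sterol reductase Tm7sf2 (-1.78 ± 0.11, 10.1 to 11.9 CPM with vehicle). Sc5d, a late enzyme of the pathway, was the exception (0.34 ± 0.05).

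Enzymes that burn fuel rose by small amounts. Mitochondrial β-oxidation rose in 18 of 21 genes and fell in 0, with a median of 0.65, and pyruvate dehydrogenase and the TCA cycle rose in 24 of 26, with a median of 0.56. Cpt1a, the liver-type gate of fatty acid entry into mitochondria, was at 116, 112 and 106 CPM in undifferentiated and 152, 139 and 125 CPM with MIZ (log2 fold change 0.31 ± 0.07, adjusted p = 0.00143), above its 44.3 to 46.6 CPM with vehicle. Cpt1b, the muscle type, rose from 1.65, 1.56 and 1.69 CPM to 7.34, 10.8 and 14.0 CPM (2.697 ± 0.22), far under the 315 to 367 CPM of vehicle. Cpt1a and Cpt1b thus both rose over undifferentiated cells, without overlap, but lay on opposite sides of their vehicle levels. Values of the isoform Cpt1c, also on the list, are not reported here. Acadvl (1.28 ± 0.04), Etfb (1.16 ± 0.05) and Hadhb (1.07 ± 0.05) were the next largest rises of the list. Pcx, pyruvate carboxylase, went from 17.6, 15.9 and 15.4 CPM to 186, 194 and 212 CPM (log2 fold change 3.60 ± 0.07, adjusted p = 9.4e-12), while the NADP-dependent Idh2 fell from 66.1, 60.2 and 64.2 CPM to 28.02, 24.7 and 27.7 CPM (-1.24 ± 0.06). Nuclear subunits of complex I rose in 35 of 36 and of complexes II to V in 40 of 42, with medians of 0.48 and 0.49. Both stayed far under vehicle: complex I subunits summed to 1533 to 1596 CPM with MIZ and 5670 to 5708 CPM with vehicle. Those of complexes II to V summed to 4198 to 4471 CPM with MIZ and 17718 to 17988 CPM with vehicle. Of 8 mitochondrially encoded genes tested, mt-Nd5 fell (-0.41 ± 0.07) and the other 7 were not called, while without MIZ library 2 or 3 the list had 2 or 5 members lower, and without MIZ library 1 it had 1 higher.

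Glycolysis rose in 17 of 22 genes, with a median of 1.18. The glucose transporter Slc2a1 was at 56.5, 55.6 and 58.4 CPM in undifferentiated and 263, 250.3 and 259 CPM with MIZ (log2 fold change 2.18 ± 0.04, adjusted p = 1.2e-11). Lactate dehydrogenase Ldha went from 273, 278 and 265 CPM to 983, 837 and 858 CPM (1.71 ± 0.06), Aldoa rose (1.72 ± 0.06), and the lactate exporter Slc16a3 rose from 26.2, 27.2 and 26.1 CPM to 128, 107 and 106 CPM (2.10 ± 0.07), where the vehicle libraries were at 95.1 to 114 CPM. Aldoc (-3.43 ± 0.34) and Eno3 (-1.45 ± 0.11), isoforms of brain and muscle, fell. Breakdown of branched-chain amino acids rose in 12 of 22 genes and fell in 4, where 35.5% and 36.3% of all genes did. The median of this pathway was only 0.18. Its largest rise was Aldh6a1 (1.14 ± 0.05), and Pccb (-0.51 ± 0.07), Ivd (-0.37 ± 0.05) and Hsd17b10 (-0.18 ± 0.06) were among the falls, the last not called without undifferentiated library 3 or MIZ library 2. Peroxisomal genes rose in 10 of 18 and fell in 6, where 35.5% and 36.3% of all genes did. Acaa1b (3.08 ± 0.23) and Pex11a, which multiplies peroxisomes (2.34 ± 0.09), rose, and Acox3 fell (-1.20 ± 0.06).

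Genes linked to heat production rose in 11 of 15 tested, of 21 listed, and fell in 3. The potassium channel Kcnk3 went from 0.0178 to 0.0471 CPM to 9.13, 10.7 and 13.9 CPM and the amino acid transporter Slc36a2 from 0.330, 0.537 and 0.409 CPM to 10.04, 15.4 and 20.9 CPM (5.17 ± 0.32). Both stayed well below their vehicle levels of 198 to 238 and 376 to 398 CPM. Cox8b had 1 count in undifferentiated cells and 53 with MIZ. Pank1 (-1.24 ± 0.10), the creatine kinase Ckb (-0.82 ± 0.08) and Letmd1 (-0.38 ± 0.06) fell.

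Genes known to answer the hormones of the medium were changed in MIZ-treated cells. Of 21 glucocorticoid-responsive genes tested, 16 rose and 5 fell, with a median of 1.46. Lcn2 (lipocalin 2) was at 0.589, 0.397 and 0.178 CPM in undifferentiated and 184, 155 and 114 CPM with MIZ (log2 fold change 8.67 ± 0.27, adjusted p = 3.1e-10), against 141 to 385 CPM with vehicle. Hif3a rose from 0.118, 0.0700 and 0.124 CPM to 5.91, 4.25 and 2.55 CPM (5.30 ± 0.42), against 4.65 to 7.09 CPM with vehicle. For both, the MIZ and vehicle libraries overlapped, and all lay above the undifferentiated ones. The phagocytic receptor Mertk (-3.18 ± 0.10), the cell cycle inhibitor Cdkn1c (-2.88 ± 0.14), Tsc22d3, the glucocorticoid-induced leucine zipper (-0.80 ± 0.05), Cyp7b1 (-0.45 ± 0.11) and Tsc22d1 (log2 fold change -0.10 ± 0.04, adjusted p = 0.0458) fell, the last only narrowly, with the call lost without any of 5 of the 6 libraries in turn.

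Genes that PPAR ligands induce rose in 14 of 18 tested and fell in 4, with a median of 1.18. Angptl4, a secreted inhibitor of lipoprotein lipase, went from 21.0, 17.1 and 14.9 CPM to 384, 353 and 342 CPM (log2 fold change 4.35 ± 0.10, adjusted p = 5.1e-11), and Aqp7, the glycerol channel, from 0.0943 to 0.117 CPM to 8.73, 10.9 and 11.8 CPM (6.58 ± 0.22). Acot1 (-2.46 ± 0.11), Ucp2 (-1.77 ± 0.05), Vnn1 (-1.13 ± 0.21) and Txnip (-0.47 ± 0.05) fell. Targets of cAMP rose in 8 of 16 and fell in 6, where 35.5% and 36.3% of all genes did. Dusp1, a phosphatase of MAP kinases, went from 10.9, 9.99 and 10.7 CPM to 44.4, 40.1 and 40.1 CPM (1.98 ± 0.06) and Fos from 3.32, 3.64 and 3.09 CPM to 10.6, 10.96 and 10.9 CPM (1.69 ± 0.09), and Pde4b fell (-0.82 ± 0.05). Pck1, the key enzyme of glyceroneogenesis, stayed under 1 CPM with MIZ (0.375, 0.643 and 0.861 CPM) where vehicle libraries reached 103 to 114 CPM.

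Of 20 genes of insulin signalling, 8 were higher and 8 lower, near the 35.5% and 36.3% of all genes. Slc2a4 (GLUT4), the insulin-responsive glucose transporter, was at 0.141, 0.210 and 0.178 CPM in undifferentiated and 7.79, 10.5 and 9.75 CPM with MIZ (log2 fold change 5.70 ± 0.21, adjusted p = 9.3e-10), and its trafficking partner Trarg1 rose from 0.754, 0.513 and 0.551 CPM to 35.2, 35.1 and 37.3 CPM (5.89 ± 0.10). Pde3b (1.65 ± 0.09) also rose. Irs1, the receptor substrate upstream of them, fell from 236, 228 and 224 CPM to 49.8, 49.7 and 49.5 CPM (log2 fold change -2.21 ± 0.04, adjusted p = 8.8e-12), below its 114 to 118 CPM with vehicle. Tbc1d4, which holds GLUT4 vesicles back, went from 35.0, 42.1 and 36.8 CPM to 11.2, 12.9 and 15.3 CPM (-1.54 ± 0.10), against 111 to 142 CPM with vehicle. In Irs1 and Tbc1d4 the MIZ libraries were the lowest of the 3 groups.

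Of 26 progenitor and stromal markers, 11 were higher and 13 lower, where 35.5% and 36.3% of all genes were. Pi16, a marker of early fibroblast-like progenitors, was at 5.59, 4.81 and 4.73 CPM in undifferentiated and 0.235, 0.168 and 0.184 CPM with MIZ (log2 fold change -4.65 ± 0.20, adjusted p = 3.4e-09). Cd34 went from 9.85, 8.98 and 9.45 CPM to 0.868, 0.783 and 0.461 CPM (-3.71 ± 0.16), and Clec11a, a stromal growth factor, from 20.9, 16.8 and 19.3 CPM to 3.00, 2.85 and 2.71 CPM (-2.73 ± 0.11). These 3 genes were low in all MIZ and all vehicle libraries. Pdgfra, the receptor that defines the adipose progenitor, fell less, from 608, 564 and 574 CPM to 465, 377 and 359 CPM (log2 fold change -0.54 ± 0.08, adjusted p = 1.3e-04), against 150.1 to 199 CPM with vehicle. Ly6a (Sca-1) was at 87.7, 82.3 and 94.5 CPM in undifferentiated and 91.6, 66.5 and 53.7 CPM with MIZ, which overlap (log2 fold change -0.32 ± 0.15, adjusted p = 0.0720), and it was called lower without MIZ library 1. Cd44, the hyaluronan receptor, rose from 152, 161 and 149 CPM to 659, 784 and 774 CPM (2.26 ± 0.07), above its 117 to 220.3 CPM with vehicle, and Fmo2 rose with a wide spread, to 213, 158 and 84.4 CPM (2.92 ± 0.27).

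The extracellular matrix was lowered in part. Of 31 collagen chains tested, 17 fell and 10 rose, where 36.3% and 35.5% of all genes did, with a median of -0.72. Col1a1, the main fibrillar chain, was at 15018, 14397 and 13804 CPM in undifferentiated and 5718, 5034 and 6952 CPM with MIZ (log2 fold change -1.29 ± 0.10, adjusted p = 5.0e-07). Col8a2 went from 176, 165 and 180.1 CPM to 4.65, 3.41 and 6.30 CPM (-5.19 ± 0.13). Col4a1 and Col18a1, chains of the basement membrane, took the other direction. Col4a1 went from 1439.8, 1298 and 1486 CPM to 4699.6, 4437 and 4902 CPM (log2 fold change 1.73 ± 0.06, adjusted p = 1.1e-09) and Col18a1 from 118, 104 and 102 CPM to 457, 427 and 408 CPM (1.996 ± 0.06). Directions of the other basement membrane chains on the list are not given here. No collagen named here overlapped between the groups, as was the case for 75.7% of all genes. Col6a6 (-5.45 ± 0.35) and Col6a5 (-4.47 ± 0.27) also fell.

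Matrix glycoproteins and proteoglycans fell in 22 of 34 genes and rose in 10, where 36.3% and 35.5% of all genes did, with a median of -1.07. The small leucine-rich proteoglycan Ogn (osteoglycin) was at 92.1, 92.6 and 89.9 CPM in undifferentiated and 0.774, 0.783 and 0.799 CPM with MIZ (log2 fold change -6.86 ± 0.07, adjusted p = 3.0e-13), and its relative Lum (lumican) at 87.5, 84.5 and 81.5 CPM and 2.49, 2.54 and 2.74 CPM (-5.03 ± 0.06). Cilp went from 57.0, 54.7 and 54.0 CPM to 0.399, 0.587 and 0.615 CPM (-6.71 ± 0.10). Ogn and Lum were lower with MIZ than in any vehicle library (4.85 to 7.18 and 14.0 to 18.0 CPM). Ecm1 rose from 79.6, 72.8 and 76.3 CPM to 317, 313 and 236 CPM (1.92 ± 0.10), against 32.6 to 33.7 CPM with vehicle. Among proteases and their inhibitors, 13 of 33 rose and 14 fell, near the shares of all genes (35.5% and 36.3%). Plau (urokinase) went from 126, 124 and 119 CPM to 9.62, 10.8 and 15.2 CPM (-3.39 ± 0.12), while the metalloproteases Mmp9 and Mmp10 rose, Mmp9 from 4.15, 4.76 and 3.73 CPM to 50.2, 61.2 and 60.9 CPM (3.78 ± 0.10) and Mmp10 from 0.118, 0.187 and 0.142 CPM to 3.94, 5.96 and 5.32 CPM (5.06 ± 0.26). Mmp16 (-2.96 ± 0.14), Mmp27 (-3.01 ± 0.15) and Adamts15 (-2.79 ± 0.14) fell.

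The contractile apparatus went up with MIZ. 27 of 31 rose, against 35.5% of all genes, 2 fell, and the median was 1.43. Acta2, smooth muscle α-actin, was at 430.5, 401 and 484 CPM in undifferentiated and 3454, 3249 and 4554 CPM with MIZ (log2 fold change 3.10 ± 0.12, adjusted p = 1.9e-09), and at 29.2 to 46.1 CPM with vehicle. Tagln (transgelin) was at 301, 274 and 317 CPM and 3174, 3079 and 3820.3 CPM (3.50 ± 0.09), against 41.5 to 55.3 CPM with vehicle. Tpm2, a tropomyosin, was at 91.2, 82.8 and 89.7 CPM and 868, 831 and 993 CPM (3.35 ± 0.07). In all of them each MIZ library exceeded each undifferentiated library, which in turn exceeded each vehicle library. Actg2 (3.93 ± 0.12) and Acta1 (3.74 ± 0.20), whose promoter with its CArG box is given above, followed, though reads of the near-identical actins may be shared between them by the counting. Myl9, the other promoter printed, went from 88.5, 85.1 and 95.1 CPM to 619.5, 574 and 739 CPM (log2 fold change 2.85 ± 0.09, adjusted p = 2.9e-10). It was named for its motif after the values were seen. Myh10 (-0.29 ± 0.07) and vimentin, Vim (log2 fold change -0.11 ± 0.05, adjusted p = 0.0405), fell slightly, and the call of Vim was lost without any undifferentiated library or MIZ library 2.

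The list of YAP and TGF-β targets rose in 17 of 23 genes and fell in 4. It also holds the ligands Tgfb1, Tgfb2 and Tgfb3 and the TGF-β binding proteins Ltbp1 and Ltbp2. The count is therefore not one of targets alone. Ccn2 (CTGF) went from 102, 98.9 and 107 CPM to 624, 672 and 824 CPM (log2 fold change 2.78 ± 0.09, adjusted p = 4.8e-10), against 7.25 to 13.5 CPM with vehicle, and Ankrd1 from 2.19, 2.75 and 2.13 CPM to 20.3, 24.0 and 29.4 CPM (3.38 ± 0.15). In the CCN family, Ccn4 rose as well (1.38 ± 0.10), but Ccn3 (NOV) went from 1287, 1254 and 1324 CPM to 66.0, 44.1 and 45.7 CPM (log2 fold change -4.63 ± 0.14, adjusted p = 2.0e-10). Tgfbi (-2.52 ± 0.07), Ltbp1 (-0.57 ± 0.06) and Tgfb1 itself (-0.49 ± 0.05) fell.

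**Figure D4:**
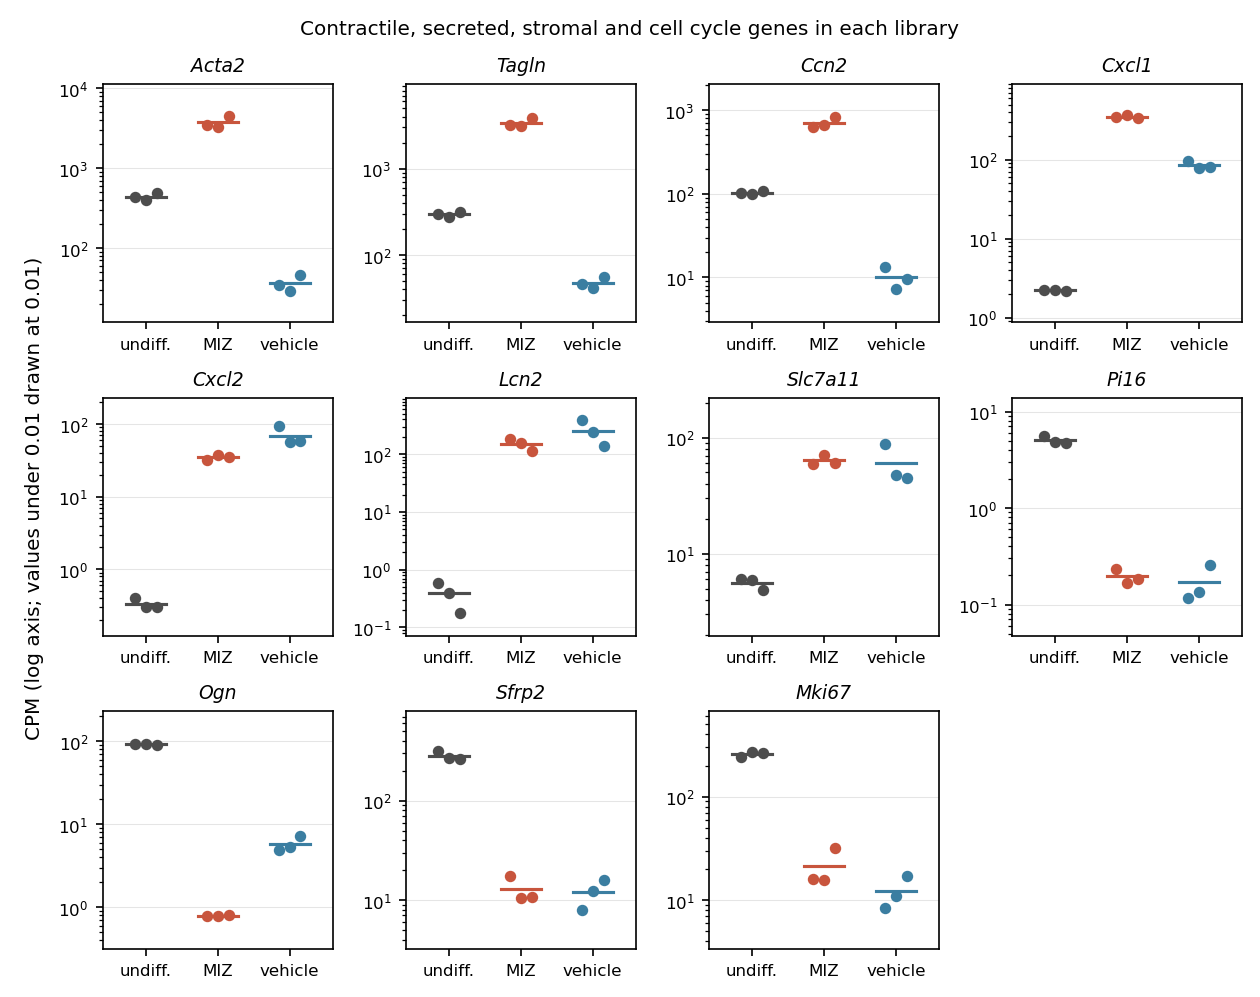
CPM (log axis) of contractile, secreted, stromal and cell cycle genes in each library (points) with the group mean (line), for undifferentiated, MIZ and vehicle libraries. Acta2, Tagln and Ccn2 are highest with MIZ and lowest with vehicle, Cxcl1 is highest with MIZ, and Pi16, Ogn, Sfrp2 and Mki67 are highest in undifferentiated cells.

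The Wnt pathway fell in 24 of 30 genes and rose in 4, with a median of -0.89. Sfrp1, a secreted Wnt antagonist, was at 3044, 2709.6 and 2819 CPM in undifferentiated and 508, 392 and 363 CPM with MIZ (log2 fold change -2.76 ± 0.11, adjusted p = 2.1e-09), and at 27.9 to 65.5 CPM with vehicle. Sfrp2 went from 319, 269 and 264 CPM to 17.6, 10.4 and 10.7 CPM (-4.44 ± 0.16). Dkk2, another antagonist, went from 14.3, 14.0 and 15.6 CPM to 1.20, 1.59 and 0.984 CPM (-3.54 ± 0.13). The antagonists thus fell along with ligands such as Wnt2 (-3.08 ± 0.29) and Wnt4 (-3.96 ± 0.33). Nkd2, an intracellular inhibitor (1.30 ± 0.10), Wnt11 (1.11 ± 0.18), Wnt10b and Lef1 rose, the last only to 0.117, 0.168 and 0.369 CPM, a call that was lost without MIZ library 3.

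Of the IGF axis, 11 of 17 genes fell and 6 rose, where 36.3% and 35.5% of all genes did. Igf2 went from 284, 257 and 246 CPM to 37.4, 32.2 and 25.9 CPM (log2 fold change -3.04 ± 0.11, adjusted p = 8.3e-10), and H19, the noncoding RNA of the same imprinted locus, from 2257, 2012 and 1800.1 CPM to 99.5, 62.0 and 64.2 CPM (log2 fold change -4.75 ± 0.18, adjusted p = 1.1e-09). The binding proteins divided. Igfbp4 fell from 444, 409 and 398 CPM to 28.9, 24.2 and 26.7 CPM (-3.97 ± 0.07), below its 187 to 203 CPM with vehicle, and Igfbp3 fell (-3.21 ± 0.15). Igfbp5 rose from 91.8, 67.4 and 61.6 CPM to 422, 396 and 284 CPM (2.32 ± 0.16) and Igfbp2 from 16.1, 15.6 and 17.6 CPM to 43.1, 51.0 and 41.3 CPM (1.46 ± 0.08), while vehicle libraries were at 34.3 to 41.0 and 1.77 to 1.96 CPM. In both, each MIZ library exceeded all others.

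Proliferation genes fell almost throughout. All 36 mitosis genes fell, with a median of -3.15, as did 36 of 37 DNA replication genes (median -1.36) and 28 of 29 replication-dependent histone genes (median -1.94), and none of the 3 lists had a member that rose. Mki67, the proliferation marker Ki-67, was at 243, 269 and 267 CPM in undifferentiated and 16.2, 15.8 and 31.8 CPM with MIZ (log2 fold change -3.63 ± 0.21, adjusted p = 3.5e-08), and at 8.36 to 17.2 CPM with vehicle. Top2a, the topoisomerase of dividing cells, went from 114, 122 and 127 CPM to 10.6, 13.0 and 20.7 CPM (-3.05 ± 0.17). Cenpf, a kinetochore protein, went from 50.3, 53.8 and 55.7 CPM to 2.89, 3.05 and 4.30 CPM (-3.98 ± 0.11). No library of one group reached the other in these genes, and MIZ library 3 was the highest of the MIZ libraries in all 3. Ccnb2 (cyclin B2), whose promoter holds the CHR letters next to the start site, went from 19.2, 21.9 and 22.6 CPM to 0.868, 1.20 and 2.55 CPM (-3.84 ± 0.23). The kinetochore gene Nuf2 (-4.19 ± 0.18) and Cenpa, the centromeric histone (-3.68 ± 0.09), fell as steeply. In DNA replication the falls were smaller, led by Mcm10 (-2.61 ± 0.18), Mcm5 of the replicative helicase (-2.504 ± 0.13), the polymerase Pole (-2.42 ± 0.17) and Cdc6 (-2.22 ± 0.16). Histone genes such as Hist1h3c (-4.13 ± 0.15) and Hist1h1a (-3.63 ± 0.12) have near-identical copies, and their values are uncertain. Replication-dependent histone mRNAs also lack poly-A tails, and the study's methods name a poly-A selection besides the removal of ribosomal RNA, so their levels here need not stand for their amounts in the cells.

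The p53 targets rose in 26 of 31 genes and fell in 2, with a median of 0.59. Cdkn1a (p21), which halts the cell cycle, was at 208, 205 and 208 CPM in undifferentiated and 436, 423 and 403 CPM with MIZ (log2 fold change 1.02 ± 0.04, adjusted p = 2.9e-09), and at 439 to 452 CPM with vehicle. The death receptor Fas went from 12.9, 13.3 and 14.6 CPM to 55.2, 58.8 and 63.8 CPM (2.12 ± 0.07), and Plk2 from 72.0, 66.9 and 65.4 CPM to 208, 233 and 253 CPM (1.77 ± 0.07). Cdkn1a with MIZ was thus near its vehicle level, whereas Fas and Plk2 were above theirs (13.4 to 19.3 and 48.8 to 73.0 CPM). Btg2 rose (1.98 ± 0.07), and Sesn1 (log2 fold change -2.59 ± 0.07, adjusted p = 8.3e-11) and Xpc (-0.24 ± 0.06) fell. The list of cell cycle inhibitors and D cyclins also held the kinases Cdk4 and Cdk6 and the cyclin Ccng2. Of its members, 11 of 16 fell, among them Cdkn1c, Rbl1 (-1.44 ± 0.06), Cdkn2d (-1.31 ± 0.11) and Cdkn2c (-1.27 ± 0.07), and Cdkn1a and Ccnd2 (0.73 ± 0.06) rose. Without MIZ library 3, 4 members of this list rose.

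The enzymes that MIZ blocks, and those around them, rose in part. Of 14 genes of guanine nucleotide metabolism, 9 rose and 3 fell, where 35.5% and 36.3% of all genes did. Impdh2, the isoform of dividing cells, was at 58.3, 52.4 and 55.0 CPM in undifferentiated and 146, 140.5 and 162 CPM with MIZ (log2 fold change 1.44 ± 0.06, adjusted p = 3.0e-09), and at 45.3 to 47.3 CPM with vehicle. Impdh1 was at 30.9, 29.2 and 29.1 CPM and 37.3, 35.1 and 38.4 CPM (log2 fold change 0.31 ± 0.05, adjusted p = 2.1e-04), and at 131 to 199.9 CPM with vehicle. Its call was lost in the fit of all 9 libraries with a replicate block (adjusted p = 0.0563 by edgeR). The MIZ libraries therefore had the highest Impdh2 of the 3 groups but an Impdh1 close to that of undifferentiated cells. Gch1, which takes GTP into tetrahydrobiopterin synthesis (1.51 ± 0.07), and Nme1, a nucleoside diphosphate kinase (1.05 ± 0.07), rose. The phosphorylases Pnp (-0.39 ± 0.07) and Pnp2 (0.86 ± 0.12) went in opposite directions, and as close copies their counts are uncertain. Gmpr (-0.80 ± 0.09) and Samhd1, which degrades dNTPs (-0.37 ± 0.05), fell.

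Of 10 genes of de novo purine synthesis, 6 rose and 3 fell, mostly by little, where 35.5% and 36.3% of all genes did. Prps1, which makes phosphoribosyl pyrophosphate, rose from 7.17, 7.84 and 7.18 CPM to 15.1, 15.8 and 17.4 CPM (1.12 ± 0.08), and its relative Prps2 fell from 45.7, 52.8 and 48.1 CPM to 33.7, 33.6 and 30.1 CPM (-0.59 ± 0.06). Atic (0.54 ± 0.05), Gart (0.47 ± 0.05) and Adsl (0.43 ± 0.05) rose, and Paics (-0.30 ± 0.05) and Adssl1 (-1.30 ± 0.11) fell. Purine salvage and breakdown had 6 of 19 genes higher and 6 lower, no more than the 35.5% and 36.3% of all genes. Its largest change was the fall of Entpd1 (CD39), which strips phosphates from extracellular ATP, from 72.4, 82.8 and 80.2 CPM to 1.24, 0.979 and 0.769 CPM (log2 fold change -6.27 ± 0.11, adjusted p = 7.1e-12). CD39 is also a surface protein of macrophages and endothelium, whose markers fell as described above, and their part in this value was not tested. Hprt, the salvage enzyme of hypoxanthine and guanine, rose (0.58 ± 0.04), as did Ampd3 (0.76 ± 0.07) and Slc28a2 (1.33 ± 0.20), and Dck fell (-1.20 ± 0.09).

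Of 24 genes of pyrimidine and deoxynucleotide synthesis, 13 were higher and 10 lower, where 35.5% and 36.3% of all genes were. Ctps, which makes CTP with GTP as activator, was at 57.5, 53.03 and 56.6 CPM in undifferentiated and 207, 196 and 203 CPM with MIZ (log2 fold change 1.86 ± 0.05, adjusted p = 5.5e-11), against 46.5 to 56.9 CPM with vehicle. Mitochondrial one-carbon enzymes rose, Mthfd1l from 16.7, 17.3 and 17.8 CPM to 74.2, 73.1 and 79.2 CPM (2.13 ± 0.05), with Shmt2 (1.30 ± 0.07) and Mthfd2 (1.26 ± 0.08). Tk1, tied to S phase, fell from 18.2, 16.6 and 15.6 CPM to 1.92, 2.40 and 3.26 CPM (log2 fold change -2.75 ± 0.14, adjusted p = 1.7e-08). None of these overlapped between the groups, as was the case for 75.7% of all genes.

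Ribosome biogenesis and RNA polymerase I genes rose in 33 of 39, with a median of 0.56. Myc, which drives this programme, went from 21.0, 20.4 and 17.3 CPM to 57.9, 62.8 and 56.4 CPM (log2 fold change 1.60 ± 0.07, adjusted p = 6.1e-09), and Polr1a, the largest subunit of the polymerase, from 48.3, 47.5 and 48.8 CPM to 104, 105 and 112 CPM (1.15 ± 0.04). Ubtf, its activator, was the member that fell (-0.15 ± 0.04). Ribosomal proteins rose in 64 of 75, by a median of 0.26, led by Rplp0, at 1004, 943 and 933 CPM in undifferentiated and 1951, 1799 and 1912 CPM with MIZ (0.98 ± 0.05).

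Genes of the ATF4 response to amino acid and other stress rose in 29 of 31, with a median of 1.20. Their summed level was 2317 to 2395 CPM in undifferentiated, 4356 to 4767 CPM with MIZ and 5589 to 6443 CPM with vehicle libraries, the highest of the 3 groups. Slc7a11, the cystine importer, was at 6.08, 5.88 and 4.89 CPM in undifferentiated and 59.6, 70.7 and 60.3 CPM with MIZ (log2 fold change 3.51 ± 0.09, adjusted p = 9.6e-11), and Chac1, which degrades glutathione, at 4.50, 5.16 and 3.73 CPM and 17.5, 19.6 and 22.2 CPM (2.15 ± 0.12). Nupr1 rose from 50.4, 47.7 and 48.5 CPM to 139, 139 and 141 CPM (1.51 ± 0.04) and Cth, of cysteine synthesis, rose too (1.65 ± 0.15). Cebpg, a partner of ATF4, fell slightly (log2 fold change -0.10 ± 0.04, adjusted p = 0.0396), a call lost without undifferentiated library 2 or 3 or MIZ library 1 or 2. The unfolded protein response of the endoplasmic reticulum did not rise with it, as 3 of 21 genes were higher and 10 lower, or 5 lower in a fit of all 9 libraries. The chaperone Hsp90b1 went from 640.3, 641 and 653 CPM to 469.7, 458 and 488 CPM (log2 fold change -0.45 ± 0.04, adjusted p = 2.0e-06), against 1479 to 2032 CPM with vehicle, and Sdf2l1 from 27.2, 31.4 and 29.6 CPM to 14.4, 14.7 and 10.5 CPM (-1.15 ± 0.11). Dnajb9 (0.60 ± 0.06), Herpud1 (0.44 ± 0.05) and Canx (0.22 ± 0.04) were the members that rose.

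Most chemokines and cytokines on the list rose with MIZ, with 19 of 27 tested genes higher, 7 lower and a median of 2.39. Cxcl1, which attracts neutrophils, was at 2.22, 2.24 and 2.17 CPM in undifferentiated and 347, 364 and 339 CPM with MIZ (log2 fold change 7.31 ± 0.06, adjusted p = 1.0e-13), and at 78.6 to 96.3 CPM with vehicle. Cxcl2, a relative, was at 0.401, 0.303 and 0.302 CPM and 32.4, 37.6 and 35.4 CPM (6.71 ± 0.12), and at 56.4 to 92.6 CPM with vehicle. Ccl20 had 1 count in undifferentiated cells and 713 with MIZ, at 4.06, 5.96 and 10.1 CPM, where vehicle libraries stayed at 0.0394 to 0.0936 CPM. Cxcl1 and Ccl20 were thus highest with MIZ, and Cxcl2 was highest with vehicle. Csf2 (GM-CSF) had 2 counts in undifferentiated cells and 283 with MIZ. Il33, an alarmin of stromal cells, went the other way, from 37.2, 37.2 and 38.2 CPM to 0.681, 0.392 and 0.430 CPM (log2 fold change -6.18 ± 0.11, adjusted p = 8.8e-12), and Tnfsf11 (RANKL) fell (-3.25 ± 0.36).

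Complement fell in 15 of 22 tested genes and rose in 6, where 36.3% and 35.5% of all genes did. The C1q chains fell together, C1qa from 259, 250.2 and 235 CPM to 33.8, 31.4 and 27.8 CPM (log2 fold change -2.99 ± 0.07, adjusted p = 4.1e-11), C1qb by 2.91 and C1qc by 3.31 on the log2 scale, beside the fall of macrophage markers given above. C2 fell (-2.65 ± 0.11), and Cd55, which protects cells from complement, rose from 9.60, 10.5 and 8.96 CPM to 41.2, 38.7 and 30.2 CPM (1.93 ± 0.11), as did Cfd. Interferon-stimulated genes rose in 19 of 35 and fell in 8, where 35.5% and 36.3% of all genes did. In a fit of all 9 libraries, 4 of the interferon-stimulated genes fell. Gbp2 (1.78 ± 0.06), Ifi44 (1.63 ± 0.19), Ifi27l2a (1.58 ± 0.09) and Usp18 (1.37 ± 0.21) rose, and the immunoproteasome subunits Psmb8 (-1.33 ± 0.09) and Psmb9 (-1.84 ± 0.19) fell.

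The counts of some of these genes may hold reads of a neighbour, since the sources used here do not give whether the counting used strand. The genes named above that share at least 100 exonic bases with another annotated gene (GENCODE vM21, GRCm38), mostly on the opposite strand, are Abcc9, Acaa1b, Acadvl, Acox3, Acsl3, Adrb3, Agpat5, Aldh6a1, Ampd3, C2, Ccn2, Ccnd2, Cd34, Cd55, Cdkn1c, Cebpb, Cideb, Csf1r, Ddit3, Fabp3, Gart, Gata3, Gmpr, Gpat3, Gpd1, Irs1, Kcnk3, Lef1, Mlxipl, Nr2f2, Paics, Pdgfra, Pi16, Polr1a, Psmb8, Psmb9, Sfrp2, Slc2a1, Tagln, Tm7sf2, Txnip, Ucp2 and Usp18.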

How the data were processed

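Total RNA was depleted of ribosomal RNA, as the labels and methods state, and selected for poly-A tails, as the methods alone state, and sequenced by the authors, who trimmed the reads with Trim Galore 0.6.7, aligned them to GRCm38 (mm10) and deposited raw counts per gene, without normalization, as 1 table for each library with 32285 Ensembl identifiers. HTSeq is among the tools per the labels, gene counting within STAR is described in the methods, and the annotation release and strand setting are not given in the sources used here. Symbols were available for 32158 identifiers.

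A gene was kept where 3 or more of the 6 libraries compared had 5 or more counts, which left out 15621 genes and kept 99.98% of counts. edgeR 4.0.16 (R 4.3.3) was fitted to the 3 MIZ and 3 undifferentiated libraries with TMM normalization and the quasi-likelihood test, and p-values were adjusted over all genes by the Benjamini-Hochberg method. The biological coefficient of variation was 0.0552. Vehicle libraries were placed on the same CPM scale and not tested. A prior count of 2 was added for distances and principal components on log2 CPM. The fit was tested on simulated data for this comparison, where 16462 genes were tested. In these, 67, 67 and 66 genes with a mean above 1 CPM were changed by 0.5, 1 and 2 on the log2 scale. Recovery was 71.6%, 100% and 100% in the same order, and 20 unchanged genes were called, to be read beside these numbers of changed genes. Far fewer genes were changed than the 71.8% called in the data, so the simulation does not describe error rates at that share.

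The comparison and its 58 gene lists were chosen with earlier results of these data known, so the lists are described by counts and medians and were given no test of their own. Each median was also computed with genes at 0 counts in a group set to their bound, which changed none at 2 decimals. Named genes are the 12 largest rises and falls among called genes that reached a mean of 5 CPM in either group without overlap, the genes nearest 0 counts in one group and highest in the other, 20 anchor genes, and in each list up to 4 of the most changed called genes in the commoner direction and up to 2 in the less common one, or all where at most 5 were called in a direction. Other normalizations and filters, DESeq2 1.42.0, a fit of all 9 libraries, a replicate block and fits without each library were tried. Precision rests on 3 libraries a group. The correlations of deviations between MIZ and undifferentiated libraries with the same number were 0.0685, 0.0324 and 0.0205, so the numbers were not taken to pair libraries. Promoters and start sites came from RefSeq (GRCm38.p6), and exon overlaps from GENCODE vM21. Values of some genes are not reported here. Figures were drawn with Python and matplotlib.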

Additional observations from a re-analysis of the deposited data

How the results depend on the processing

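Over all settings, 5506 to 5933 genes were called higher and 5578 to 6363 lower, and no called gene changed sign in any of them. Leaving out each library in turn gave 5506 to 5832 genes higher and 5615 to 6004 lower. With a replicate block, 5921 genes were higher and 6031 lower in the 6 libraries, against 5917 and 6053 without it, and 5635 and 5578 in all 9, against 5743 and 5697 without it. Scaling to total counts moved the median of all genes from -0.01 to -0.04, and gave 5555 higher and 6363 lower. Distances between groups moved with a prior count of 0.5 (1.49 between undifferentiated and MIZ, 1.47 between MIZ and vehicle, 1.97 between undifferentiated and vehicle libraries) and for genes of at least 5 CPM (1.22, 1.18 and 1.67), in place of 1.33, 1.33 and 1.79. Over these genes, chosen without the vehicle libraries, MIZ was nearer to vehicle than to undifferentiated cells by a small margin in those settings. The reported distances to both overlapped. With genes chosen on all 9 libraries the order was not tested.

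Of 343 named genes, 10 lost their call under at least 1 alternative (Agpat5, Cebpg, Cox4i2, Hsd17b10, Impdh1, Lef1, Rgs5, Sparcl1, Tsc22d1 and Vim), and Ly6a gained one under 4. The median of purine salvage genes was -0.0437 without MIZ replicate 1, the lowest of the fits without a library, which ranged from there to 0.0591, against 0.04. The skeletal muscle markers had a median of -0.521 with no filter and the cartilage and bone markers one of -0.0900 with edgeR's filterByExpr, against 1.04 and 0.20, where other numbers of members were tested. Counts moved by more than 1.5 times in 12 list counts, and 12 list medians moved by more than their replicate spread. The cause was not tested. With 3 libraries a group, a gene that was not called is not shown to be unchanged.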

Other observations

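Antioxidant and glutathione enzymes rose in 20 of 29 tested genes and fell in 7. Sod2, the mitochondrial superoxide dismutase, was at 56.5, 57.8 and 53.4 CPM in undifferentiated and 406, 394 and 361 CPM with MIZ (log2 fold change 2.79 ± 0.06, adjusted p = 1.4e-11, edgeR's quasi-likelihood test). Srxn1 went from 50.8, 50.6 and 49.9 CPM to 131, 136 and 116 CPM (1.34 ± 0.06) and Prdx6 from 69.8, 68.7 and 71.8 CPM to 179, 167 and 156 CPM (1.26 ± 0.05). Gpx3, the secreted glutathione peroxidase, went from 390.2, 349 and 341 CPM to 109, 95.4 and 75.2 CPM (-1.95 ± 0.11) and Gstt1 from 13.2, 12.1 and 13.8 CPM to 2.09, 1.57 and 1.48 CPM (-2.91 ± 0.13). No library of the groups overlapped in these genes, as was the case for 75.7% of all genes.

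Retinoid genes fell in 12 of 21 tested and rose in 9, where 36.3% and 35.5% of all genes did. Aldh1a3, an enzyme of retinoic acid synthesis, went from 13.1, 10.7 and 12.6 CPM to 0.352, 0.643 and 1.35 CPM (-4.02 ± 0.26), its relative Aldh1a2 fell (-2.20 ± 0.17), and Aldh1a7 rose from 0.283, 0.187 and 0.533 CPM to 19.4, 22.4 and 35.9 CPM (6.18 ± 0.33). Rbp4, the plasma carrier of retinol, rose from 0.0471 to 0.0700 CPM to 2.72, 2.80 and 3.75 CPM (5.69 ± 0.30), while vehicle libraries were at 167 to 353 CPM. Of 15 carboxylesterases listed, 4 had enough counts to be tested, and all of them rose. Ces2e was at 0.189, 0.280 and 0.195 CPM in undifferentiated and 37.5, 35.5 and 20.3 CPM with MIZ (7.14 ± 0.33), and at 0.0225 to 0.0702 CPM with vehicle, and Ces2g was at 2.499, 3.59 and 3.15 CPM, 36.1, 35.6 and 22.6 CPM and 1.24 to 1.67 CPM in the same order (3.35 ± 0.19). Both were thus highest with MIZ, whereas Ces1d and Ces1f, with 1 count each in undifferentiated cells, were highest with vehicle (56.7 to 73.6 and 8.53 to 10.7 CPM). Members of the same carboxylesterase cluster are similar in sequence, and the authors' counting may have split or dropped reads that they share.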
